A study of Mus musculus with 14 samples.

Results

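The genes that carry a cell past the G1 checkpoint into DNA replication were examined in primitive erythroid precursors of the mouse yolk sac. The set has 10 genes: the transcription factors E2f1, E2f2 and E2f4, the retinoblastoma gene Rb1, the cyclins Ccnd2, Ccnd3 and Ccne1, the kinase gene Cdk6, and the kinase inhibitor genes Cdkn2c and Cdkn1b. Every probe set that the platform annotation assigned to one of these symbols was used. That gave 17 probe sets for 9 of the 10 genes, out of 22626 probe sets and 12393 genes in all. E2f2 had 0 probe sets under its symbol, so no value is given for it. Ccnd2 had 7 probe sets, E2f1 and Cdkn1b had 2 each, and the other genes had 1 each. Where a gene had several, its leading value is that of the probe set with the highest mean over the 14 arrays.

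All embryos were of strain FVB/N at embryonic day 9.5. The study holds 3 KLF1-/- KLF2-/- samples, 3 KLF1-/- samples and 8 wild-type samples, each hybridised to an Affymetrix mouse expression array. Mothers were heterozygous for KLF1, or for KLF1 and KLF2, and embryos were genotyped by PCR on the tail. The cells were cut by laser from frozen yolk sac sections, and each replicate pooled 2 to 4 yolk sacs from 2 litters. The labels do not say whether any litter served more than 1 replicate, nor in which cells the null alleles act. In captured material of this kind, fewer cells of a type and less RNA per cell cannot be told apart.

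Entry into S phase is controlled by the retinoblastoma protein, which holds E2F transcription factors inactive in resting cells. D-type cyclins with CDK4 or CDK6, and then cyclin E with CDK2, phosphorylate the retinoblastoma protein and free E2F. INK4 inhibitors such as p18, the product of Cdkn2c, block CDK4 and CDK6, and p27, the product of Cdkn1b, blocks cyclin E with CDK2. Red cell precursors divide rapidly and then leave the cycle as they mature, and in mouse fetal liver E2f2 and Cdkn2c are known targets of KLF1. KLF1 and KLF2 are zinc finger factors of the Krüppel-like family that bind CACCC and GC-rich elements. The comparison asks whether the loss of KLF1, or of both factors, changes this control system in the first wave of red cells.

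None of the 9 measured genes passed the test in any comparison. A probe set was called at an adjusted p under 0.05, from limma's moderated test with Benjamini-Hochberg adjustment over all 22626 probe sets. In KLF1-/- KLF2-/- against wild type 0 of the 17 were called, where 0.0221% of all probe sets were. In KLF1-/- against wild type 0 of the 17 were called, against 0.0265% of all. Between KLF1-/- KLF2-/- and KLF1-/- the members again gave 0 calls, and so did the whole array, at 0%. For the mean of both mutant genotypes against wild type the share of all probe sets called was 0.0707%, and the members gave 0. With so few calls anywhere on the array, a count of 0 among 17 is close to the background.

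The unadjusted test gave 0 of the 17 at p under 0.05 in each of the 4 comparisons. Over all probe sets it gave 2.11% in KLF1-/- KLF2-/-, 1.92% in KLF1-/-, 0.628% between the mutant genotypes and 2.76% for both mutant genotypes together. The smallest p of a member was 0.111 in KLF1-/- KLF2-/-, at Ccnd2, and 0.0528 in KLF1-/-, at E2f4. The median log2 difference over the 9 genes was 0.028 in KLF1-/- KLF2-/- and 0.069 in KLF1-/-. Over all 12393 genes these medians were 0.0067 and 0.0070. Both comparisons use the same wild-type arrays, so their values are not independent of each other.

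**Figure D1:**
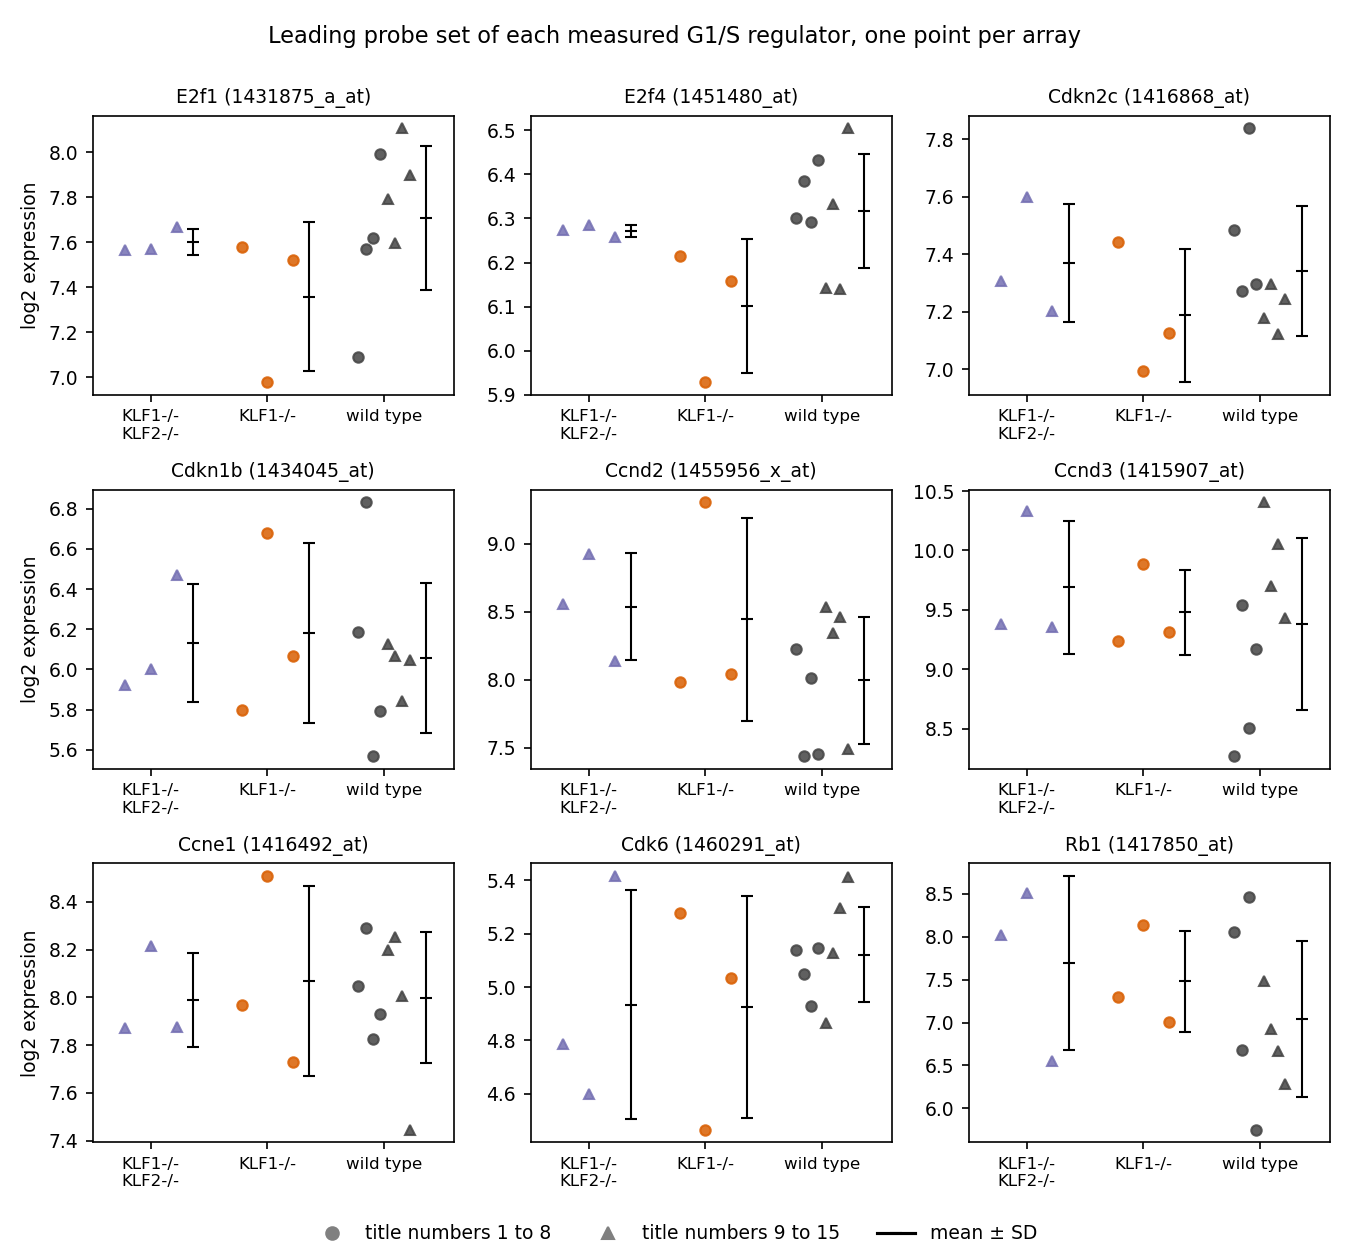
Log2 expression of the leading probe set of each of the 9 measured genes, one point per array, with KLF1-/- KLF2-/-, KLF1-/- and wild type from left to right and the mean ± SD beside the points. Circles are title numbers 1 to 8 and triangles 9 to 15, each panel has its own axis, and in every panel the points of each mutant genotype overlap those of wild type.

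A difference of 2-fold, which is 1 on the log2 scale, lay outside the 95% interval in both directions for 13 of the 17 probe sets in KLF1-/- KLF2-/- and for 15 of 17 in KLF1-/-. The half-width of the intervals was 0.218 to 1.14 on the log2 scale in both. The narrowest belonged to E2f4 and the widest to Rb1. The plot of differences shows which genes leave room for a change of that size.

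**Figure D2:**
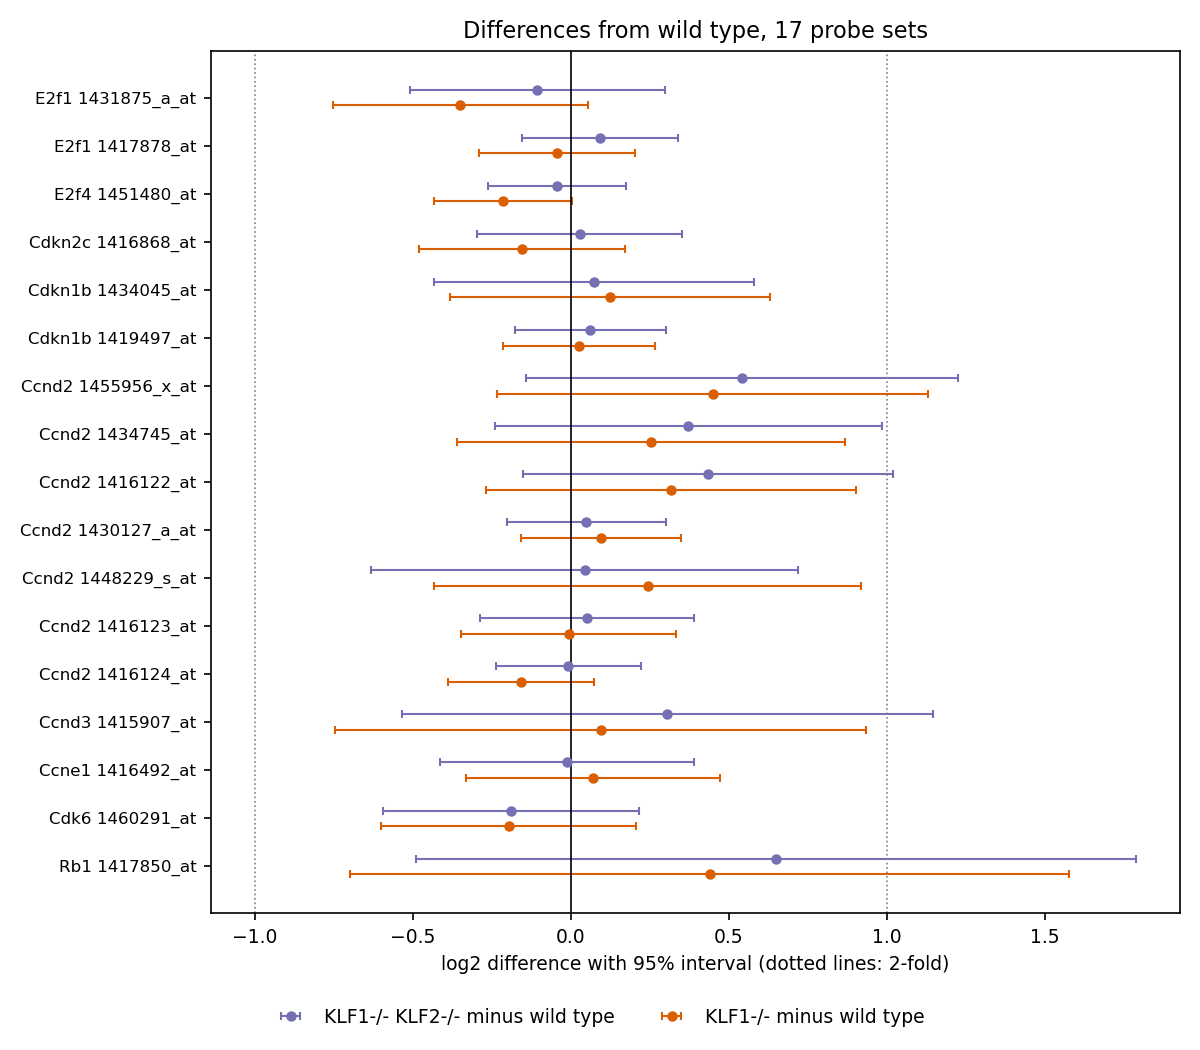
Log2 difference from wild type with its 95% interval for the 17 probe sets, KLF1-/- KLF2-/- above KLF1-/- in each pair, with dotted lines at a 2-fold change. Every interval crosses 0, and those of Rb1, Ccnd3 in KLF1-/- KLF2-/- and 2 brighter Ccnd2 probe sets reach past 2-fold.

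Facts of the arrays bear on these values. Klf1 itself averaged 9.15 ± 0.53 in KLF1-/- KLF2-/-, 9.45 ± 0.39 in KLF1-/- and 10.67 ± 0.63 in wild type (log2 expression, mean ± SD over 3, 3 and 8 arrays), with every mutant array below every wild-type array. Its adjusted p was 0.525 in KLF1-/- KLF2-/- and 0.9998 in KLF1-/-, and the labels do not say whether its probe set lies in the deleted part. Klf2 averaged 6.69 ± 0.32 in KLF1-/- KLF2-/-, 6.22 ± 0.28 in KLF1-/- and 6.25 ± 0.25 in wild type, so it was not lower in the arrays labelled KLF1-/- KLF2-/-. Those arrays are named by their label throughout. Of 8 defining erythroid genes 7 had a probe set, the dimmest being Epor at a mean of 8.67, and their mean level was 11.55 to 12.39 in KLF1-/- KLF2-/-, 11.70 to 11.96 in KLF1-/- and 11.60 to 12.54 in wild type.

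Markers of other yolk sac cells were present as well. The mean of 8 megakaryocyte genes was 7.50 to 7.93 in KLF1-/- KLF2-/-, 7.32 to 7.45 in KLF1-/- and 6.90 to 7.29 in wild type, so the mutant arrays lay above the wild-type arrays. The mean of 8 macrophage genes was 7.19 to 7.30 in KLF1-/- KLF2-/-, 6.79 to 6.98 in KLF1-/- and 6.57 to 7.15 in wild type, so the KLF1-/- arrays lay inside the wild-type range and the KLF1-/- KLF2-/- arrays above it. Means over 9 visceral endoderm, 8 mesenchymal and 8 endothelial genes overlapped between wild type and each mutant genotype. The visceral endoderm mean was 11.22 to 11.39 in KLF1-/- KLF2-/-, 11.28 to 11.93 in KLF1-/- and 10.56 to 12.31 in wild type. In each genotype that range overlapped the range of the erythroid genes or came close to it. The mesenchymal mean was 10.14 to 10.53, 9.67 to 10.56 and 9.53 to 10.52 in the same order, and the endothelial mean in wild type 6.34 to 6.64. The members are not particular to red cell precursors, and the part of these other cells in their levels was not tested. The spread of the arrays differed too: measured as the interquartile range, it was 2.31 at wild-type replicate 12 and 3.12 at KLF1-/- replicate 6. The Gapdh control read higher at its 3′ than at its 5′ probe set on every array. That log2 difference ran from 3.90 at wild-type replicate 12 to 5.28 at wild-type replicate 1. Its part in the members' levels was not tested.

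The E2F factors came nearest to a difference in KLF1-/-. E2F1 is an activator of the S phase programme. Its leading probe set 1431875_a_at gave 7.57, 7.57 and 7.67 in KLF1-/- KLF2-/- replicates 13, 14 and 15. It gave 7.58, 6.98 and 7.52 in KLF1-/- replicates 5, 6 and 8, and 7.09 to 8.11 with a median of 7.71 in wild type. Replicate 6 was the lowest of all 14 arrays, and the remaining mutant arrays lay inside the wild-type range. The log2 difference was −0.11 in KLF1-/- KLF2-/- (SE 0.188) and −0.35 in KLF1-/- (SE 0.188). Without replicate 6 the KLF1-/- difference was −0.16. The dimmer E2f1 probe set 1417878_at differed by 0.094 in KLF1-/- KLF2-/- and −0.043 in KLF1-/-.

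E2F4 acts mainly as a repressor together with the retinoblastoma family, and mice without it are anaemic. Its single probe set measured 6.27, 6.29 and 6.26 in KLF1-/- KLF2-/- replicates 13, 14 and 15. The KLF1-/- values were 6.22, 5.93 and 6.16 in replicates 5, 6 and 8, against 6.14 to 6.50 with a median of 6.32 in wild type. Replicate 6 was again the lowest array, while replicates 5 and 8 lay inside the wild-type range. The difference was −0.044 in KLF1-/- KLF2-/- (SE 0.102) and −0.22 in KLF1-/- (SE 0.102, adjusted p = 0.9998), or −0.13 without replicate 6. Its spread within genotypes was among the smaller ones on the array, lower than that of all but 7.82% of probe sets.

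Between the mutant genotypes, E2f4 was the one member whose groups did not overlap: the lowest KLF1-/- KLF2-/- array was at 6.26 and the highest KLF1-/- array at 6.22. That is 1 of 17 probe sets, where 3.48% of all probe sets had groups of 3 that did not overlap. The difference was 0.17 with a 95% interval of −0.092 to 0.43 (SE 0.123), and 0.085 without KLF1-/- replicate 6. Against wild type, 0 members had groups that did not overlap in either genotype, with 0.698% of all probe sets doing so in KLF1-/- KLF2-/- and 0.513% in KLF1-/-. For all 6 mutant arrays against wild type the members gave 0 and the array 0.168%.

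Rb1, which encodes the retinoblastoma protein itself, had the widest scatter of the set. It measured 8.02, 8.50 and 6.55 in KLF1-/- KLF2-/- replicates 13, 14 and 15 and 7.30, 8.14 and 7.01 in KLF1-/- replicates 5, 6 and 8. Wild type ran from 5.75 to 8.46 with a median of 6.80, so the wild-type arrays alone spanned nearly the whole range of the 14. Only KLF1-/- KLF2-/- replicate 14 lay outside it, above the highest wild-type array. The spread within genotypes exceeded that of 99.5% of probe sets. The difference was 0.65 in KLF1-/- KLF2-/- with a 95% interval of −0.49 to 1.79, and 0.44 in KLF1-/- with −0.70 to 1.58. The first was 0.24 without replicate 14 and 1.22 without replicate 15, and the second was 0.11 without replicate 6. In linear terms the intervals with all arrays ran from 0.713 to 3.45 times and from 0.616 to 2.99 times the wild-type level, so this probe set leaves both a fall and a rise of Rb1 within its error.

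Of the 2 inhibitor genes neither was called. Cdkn2c, a KLF1 target in fetal liver, measured 7.31, 7.60 and 7.20 in KLF1-/- KLF2-/- replicates 13, 14 and 15. In KLF1-/- replicates 5, 6 and 8 it measured 7.44, 6.99 and 7.13, against 7.12 to 7.84 with a median of 7.28 in wild type. Replicate 6 was the lowest array and wild-type replicate 3 the highest, and the genotypes overlapped. The difference was 0.028 in KLF1-/- KLF2-/- (95% interval −0.30 to 0.35) and −0.15 in KLF1-/- (−0.48 to 0.17). In linear terms the KLF1-/- KLF2-/- level was between 0.814 and 1.28 times the wild-type level, and the KLF1-/- level between 0.717 and 1.13 times. A 2-fold fall of Cdkn2c lay outside both intervals. The KLF1-/- difference was −0.057 without replicate 6 and −0.29 against wild-type replicates 1 to 4 alone, which share the title numbers 1 to 8 with KLF1-/-. Among title numbers 9 to 15 the direction was the other: KLF1-/- KLF2-/- averaged 7.37 and wild-type replicates 9 to 12 averaged 7.21. Wild-type replicates 1 to 4 averaged 7.47. Without replicate 14 the KLF1-/- KLF2-/- difference from all wild-type arrays was −0.086.

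Because Cdkn2c is the measured gene with a known place under KLF1, its promoters are shown for matches to the KLF motif CCNCNCCC, searched on both strands, whose capitals mark each match. RefSeq gives 2 starts for Cdkn2c, both on the minus strand of build GRCm38.p6, and the windows are the 250 bases before each start, 5′ to 3′ in the direction of transcription. The upstream window is chr4:109666757-109667006 and the downstream window chr4:109665373-109665622.
Cdkn2c upstream start: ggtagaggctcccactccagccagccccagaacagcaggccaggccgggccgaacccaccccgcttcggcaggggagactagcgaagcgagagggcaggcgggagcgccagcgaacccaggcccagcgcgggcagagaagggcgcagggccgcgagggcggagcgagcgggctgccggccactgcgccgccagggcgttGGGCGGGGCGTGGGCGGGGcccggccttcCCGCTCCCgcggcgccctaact
Cdkn2c downstream start: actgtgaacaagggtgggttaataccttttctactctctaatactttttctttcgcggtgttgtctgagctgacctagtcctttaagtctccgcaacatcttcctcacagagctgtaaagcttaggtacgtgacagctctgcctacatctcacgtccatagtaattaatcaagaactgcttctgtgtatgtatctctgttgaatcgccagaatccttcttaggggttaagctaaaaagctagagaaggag
The upstream window held 4 matches, beginning 51, 46, 40 and 22 bases before the start, the first 3 of them overlapping. The downstream window held 0.

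Windows for 7 of the 10 genes, 10 windows in all, were in the RefSeq table. E2f2, Cdkn2c and Ccnd3 each gave more than a single window. The KLF motif was found in 9 of the 10 windows, and in 45.9% of the 32851 mouse windows of that length. The windows were not matched for base composition, so these shares do not measure enrichment. The shorter core CACCC, which overlaps some of those matches, was in 8 of the 10 and in 52% of all windows. The E2F motifs, TTTCCCGC, TTTGGCGC and TTTCGCGC, were in 0 of the 10 and in 1.53% of all. Only the bases before the annotated starts were searched, so a site elsewhere in a gene, or before a start not annotated, would be missed. A match is a run of letters, not a measured binding site. Of the genes with windows, E2f2 has no expression value here, and none of the others was called. The arrays hold no measure of binding.

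Cdkn1b, the gene of p27, measured 5.92, 6.002 and 6.47 in KLF1-/- KLF2-/- replicates 13, 14 and 15. It measured 5.80, 6.68 and 6.07 in KLF1-/- replicates 5, 6 and 8 and 5.57 to 6.83 with a median of 6.06 in wild type. The highest array was wild type, replicate 2, and all mutant arrays lay inside the wild-type range. The difference was 0.074 in KLF1-/- KLF2-/- (SE 0.236) and 0.12 in KLF1-/- (SE 0.236), which became −0.12 without replicate 6. The dimmer probe set 1419497_at differed by 0.062 in KLF1-/- KLF2-/- and 0.026 in KLF1-/-.

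Among the D-type cyclins, which partner CDK4 and CDK6, Ccnd2 had the smallest p of the members for both mutant genotypes together. Its leading probe set 1455956_x_at measured 8.56, 8.92 and 8.14 in KLF1-/- KLF2-/- replicates 13, 14 and 15 and 7.99, 9.31 and 8.05 in KLF1-/- replicates 5, 6 and 8. Wild type ran from 7.44 to 8.54 with a median of 8.12. KLF1-/- KLF2-/- replicates 13 and 14 and KLF1-/- replicate 6 lay above every wild-type array, and the other 3 mutant arrays lay within the wild-type range. The difference was 0.54 in KLF1-/- KLF2-/- (SE 0.318) and 0.45 in KLF1-/- (SE 0.318). For the mean of both it was 0.50 (SE 0.254, adjusted p = 0.9999), which is 1.41 times the wild-type level with a 95% interval of 0.967 to 2.06 times.

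The highest Ccnd2 values of the leading probe set came from arrays of wide spread. KLF1-/- replicate 6, the highest for Ccnd2, had the widest interquartile range, 3.12. KLF1-/- KLF2-/- replicate 14, the second highest, had 2.84. Wild-type replicate 2 had a range of 2.89 and the lowest Ccnd2 of all, so the pattern has an exception. Without KLF1-/- KLF2-/- replicate 14 the KLF1-/- KLF2-/- difference was 0.35. Without KLF1-/- replicate 6 the KLF1-/- difference was 0.019. With the interquartile range as a covariate, a fit added after the data were seen, the difference was 0.49 in KLF1-/- KLF2-/- and 0.31 in KLF1-/-.

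The 7 Ccnd2 probe sets did not move alike. Probe sets whose name ends in _x_at or _s_at may bind other transcripts, and the leading one is of that kind. The next brightest, 1434745_at and 1416122_at, have plain _at names. They differed by 0.37 and 0.43 in KLF1-/- KLF2-/- and by 0.25 and 0.32 in KLF1-/-. Over all 7 the differences ran from −0.0077 to 0.54 in KLF1-/- KLF2-/- and from −0.16 to 0.45 in KLF1-/-. The dimmest 2, 1416123_at and 1416124_at, gave 0.051 and −0.0077 in KLF1-/- KLF2-/- and −0.0066 and −0.16 in KLF1-/-.

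**Figure D3:**
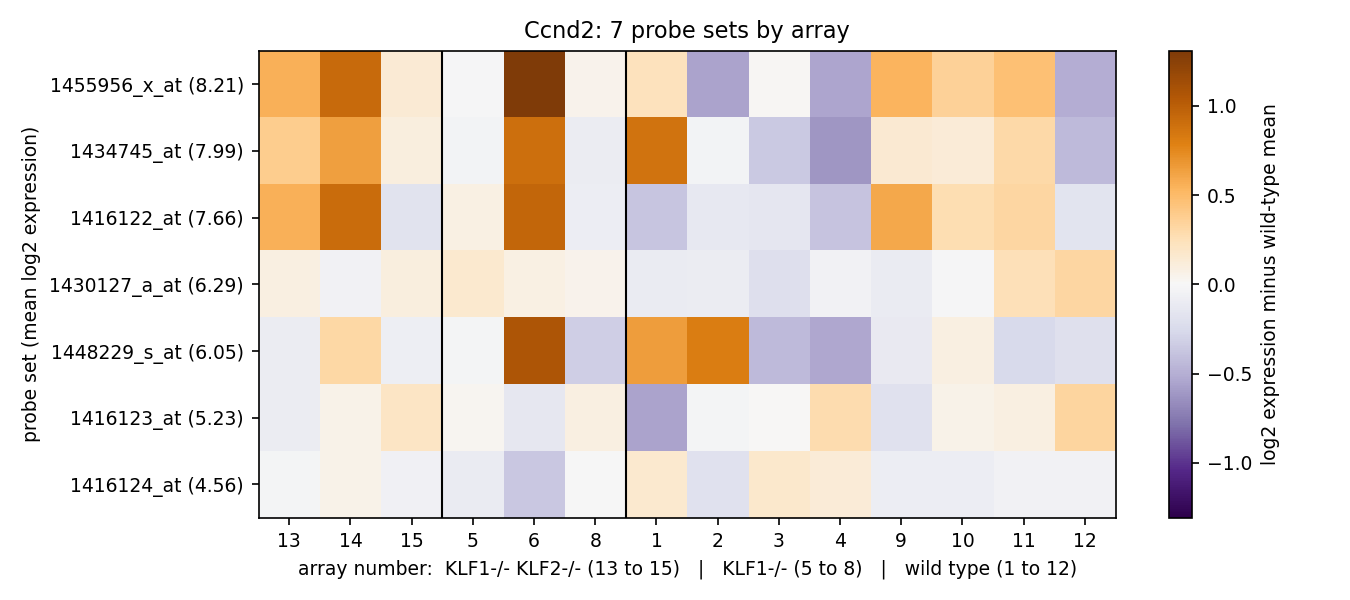
Log2 expression of the 7 Ccnd2 probe sets, one row each with its mean over the 14 arrays in brackets, as the difference from that probe set's wild-type mean, one column per array with KLF1-/- KLF2-/- left, KLF1-/- in the middle and wild type right. The 3 brightest rows are high at KLF1-/- KLF2-/- replicates 13 and 14 and KLF1-/- replicate 6, and the 2 lowest rows are not. Wild-type arrays are high in these rows too. At 1434745_at wild-type replicate 1 (log2 expression 8.73) lies above replicates 13 (8.25) and 14 (8.49). At 1416122_at wild-type replicate 9 (8.10) lies above replicate 13 (8.06).

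Ccnd3 sets the number of late divisions in mouse red cell precursors. Its probe set measured 9.38, 10.33 and 9.35 in KLF1-/- KLF2-/- replicates 13, 14 and 15 and 9.24, 9.89 and 9.31 in KLF1-/- replicates 5, 6 and 8. Wild type ran from 8.27 to 10.41 with a median of 9.48, and all 6 mutant arrays lay inside that range. The difference was 0.31 in KLF1-/- KLF2-/- (95% interval −0.53 to 1.15) and 0.094 in KLF1-/- (−0.75 to 0.93). The spread within genotypes exceeded that of 96.4% of probe sets.

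Part of that spread lay between 2 sets of wild-type arrays. The sample titles number the arrays 1 to 8, which hold the KLF1-/- samples and 4 wild-type samples, and 9 to 15, which hold the KLF1-/- KLF2-/- samples and the other 4. The labels do not say that these runs of numbers are batches. Ccnd3 averaged 9.90 in wild-type replicates 9 to 12 and 8.87 in wild-type replicates 1 to 4, a log2 difference of 1.03 (limma, adjusted p = 0.41 over all probe sets). Over all 22626 probe sets these sets of wild-type arrays gave 0 calls, and 1792 had an unadjusted p under 0.05 in limma. That is more than the 478 in KLF1-/- KLF2-/-, the 434 in KLF1-/- and the 624 for both together, each against all wild-type arrays. The wild-type sets were compared in a separate fit and hold other numbers of arrays, so these counts are not fully alike. Against the wild-type arrays of its own run, Ccnd3 differed by −0.21 in KLF1-/- KLF2-/- and by 0.61 in KLF1-/-, so its sign in KLF1-/- KLF2-/- turned with the choice of wild-type arrays. With the run as a block, the difference of KLF1-/- KLF2-/- from KLF1-/- was −0.81, in place of 0.21.

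**Figure D4:**
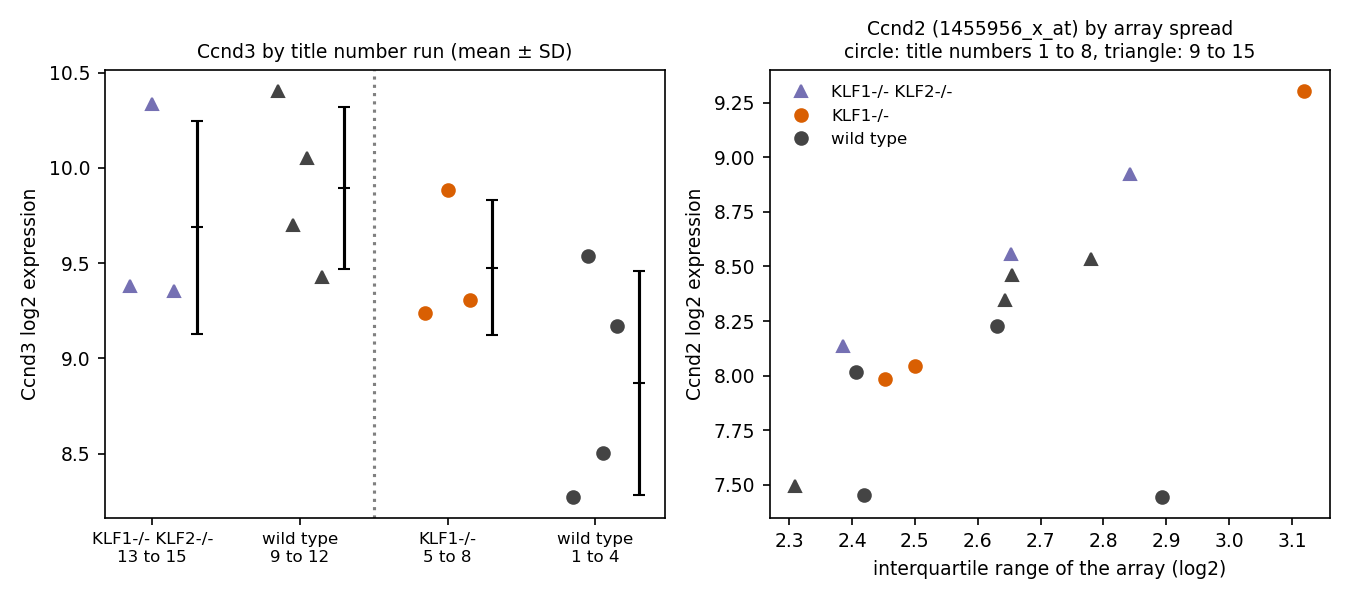
Left, Ccnd3 log2 expression by genotype within each run of title numbers, with the mean ± SD beside the points. Right, Ccnd2 log2 expression of 1455956_x_at against that array's interquartile range. Wild-type replicates 9 to 12 average 9.90 for Ccnd3 and wild-type replicates 1 to 4 8.87, and KLF1-/- replicate 6 stands at the far right with the highest Ccnd2.

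Cdk6, the kinase partner of the D-type cyclins, measured 4.79, 4.60 and 5.42 in KLF1-/- KLF2-/- replicates 13, 14 and 15. It measured 5.28, 4.46 and 5.03 in KLF1-/- replicates 5, 6 and 8, against 4.86 to 5.41 with a median of 5.14 in wild type. KLF1-/- replicate 6 and KLF1-/- KLF2-/- replicates 13 and 14 lay below every wild-type array, and KLF1-/- KLF2-/- replicate 15 lay just above the highest. The same 3 low arrays were the 3 highest for Ccnd2. The difference was −0.19 in KLF1-/- KLF2-/- (SE 0.189) and −0.20 in KLF1-/- (SE 0.189), or 0.033 without replicate 6. The KLF1-/- KLF2-/- difference was −0.020 without replicate 14 and −0.43 without replicate 15. The signal is weak, with 16.9% of probe sets dimmer, and the deposited values hold no detection call. Differences between weak signals are compressed on these arrays.

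Ccne1, the gene of cyclin E1, which drives CDK2 at the entry into S phase, averaged 7.99 ± 0.20 in KLF1-/- KLF2-/-, 8.07 ± 0.40 in KLF1-/- and 7.999 ± 0.28 in wild type. It measured 7.87, 8.21 and 7.88 in KLF1-/- KLF2-/- replicates 13, 14 and 15, 7.97, 8.51 and 7.73 in KLF1-/- replicates 5, 6 and 8, and 7.45 to 8.29 with a median of 8.03 in wild type. KLF1-/- replicate 6 was above every wild-type array and the other mutant arrays were inside the wild-type range. The difference was −0.011 in KLF1-/- KLF2-/- (95% interval −0.41 to 0.39) and 0.069 in KLF1-/- (−0.33 to 0.47). Its sign in KLF1-/- turned to −0.15 without replicate 6.

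KLF1-/- replicate 6 recurred among these extremes. It was the highest of the 14 arrays for Ccne1 and for 4 of the 7 Ccnd2 probe sets. It was the lowest for E2f4, Cdkn2c, Cdk6 and both E2f1 probe sets and for the Ccnd2 probe set 1416124_at.

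In the wider pathway the test made no call. A list of 34 other G1/S genes, among them the remaining cyclins, kinases, inhibitors, pocket proteins and E2F partners, had 30 genes on the array. Of these, 18 were above 0 in KLF1-/- KLF2-/- and 21 in KLF1-/-, with median log2 differences of 0.027 and 0.051. Over all genes 52.1% were above 0 in each. The test called 0 of the 30 in every comparison. Cdkn1a, the p53-responsive inhibitor gene, differed by 0.37 (SE 0.169) in KLF1-/- KLF2-/- and was the only one of the 30 whose leading probe set had an unadjusted p under 0.05 in any comparison. That is 3.33% of the list in this comparison, near the 2.4% of all genes. Its difference was 0.13 without KLF1-/- KLF2-/- replicate 15, and its other probe set 1421679_a_at differed by 0.11. E2f8, an atypical E2F repressor, differed by −0.18 (SE 0.103) in KLF1-/- KLF2-/- from wild type.

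Other named genes of the list had the smallest p-values in their comparison without passing the test. In KLF1-/-, Ccne2, the gene of cyclin E2, differed by −0.42 (SE 0.258), and Cdk2, the kinase of cyclin E, by 0.47 (SE 0.294). For both mutant genotypes together, Cdk2 differed by 0.48 (SE 0.235) and Cdkn1c, the inhibitor gene of p57, by 0.56 (SE 0.339). Between KLF1-/- KLF2-/- and KLF1-/-, E2f8 differed by −0.25 (SE 0.125) and Mybl2, a cell cycle transcription factor, by −0.34 (SE 0.181). Every one of these had an adjusted p of 0.9998 or more.

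Among genes that E2F activates at the start of S phase there was no call either. Of 25 such targets 24 were measured, and 18 were above 0 in KLF1-/- KLF2-/- and 18 in KLF1-/-, with medians of 0.072 and 0.10. That is 75% of the targets in each, where 52.1% of all genes were above 0. Both shares rest on the same wild-type arrays, and the genes compared were not matched for brightness. The test called 0 in every comparison. Mcm3, a subunit of the replicative helicase, had the widest difference. Its leading probe set 1426653_at differed by 0.86 (SE 0.5) in KLF1-/- KLF2-/-, by 1.02 (SE 0.5) in KLF1-/- and by 0.94 (SE 0.399) for both together (adjusted p = 0.9999). Single arrays moved these values: the KLF1-/- KLF2-/- difference was 0.18 without replicate 14 and 1.64 without replicate 15, and the KLF1-/- difference was 0.57 without replicate 6. The group means were 8.78 ± 1.48 in KLF1-/- KLF2-/-, 8.94 ± 0.84 in KLF1-/- and 7.92 ± 0.50 in wild type. The other 4 Mcm3 probe sets differed by −0.34 to 0.11 for both together, so they did not share its size.

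The other named targets were the helicase genes Mcm2, Mcm6 and Cdc45, and Rrm2, the small subunit of ribonucleotide reductase. Mcm2 differed by 0.28 (SE 0.178) in KLF1-/- KLF2-/-. Cdc45 differed by 0.31 (SE 0.181) in KLF1-/- and by 0.27 (SE 0.145) for both together. Between KLF1-/- KLF2-/- and KLF1-/-, Rrm2 differed by 0.19 (SE 0.205) and Mcm6 by 0.28 (SE 0.33). None was called. Myc, a growth regulator that the study's title names and that drives cyclin genes in many cells, averaged 6.46 ± 0.30 in KLF1-/- KLF2-/-, 6.89 ± 0.42 in KLF1-/- and 7.35 ± 0.38 in wild type (adjusted p = 0.788 in KLF1-/- KLF2-/- and 0.9998 in KLF1-/-).

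**Figure D5:**
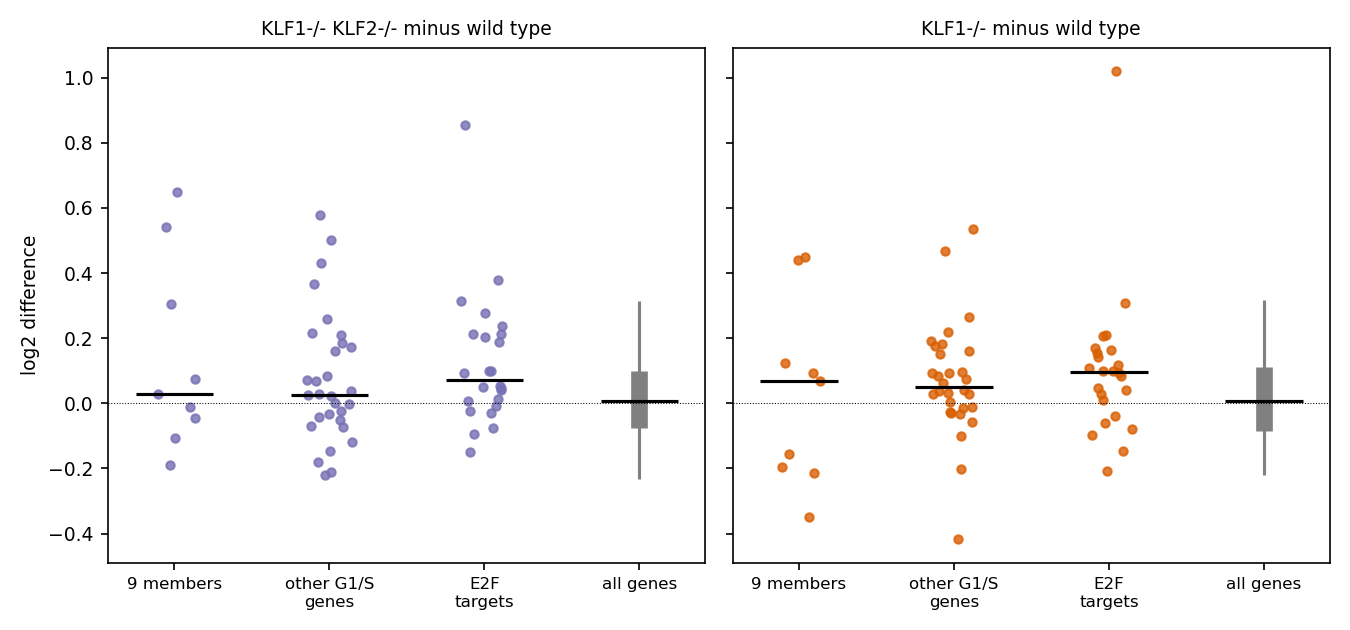
Log2 difference from wild type of the 9 measured members, 30 other G1/S genes and 24 E2F targets, one point per gene with the median as a line, KLF1-/- KLF2-/- left and KLF1-/- right. The grey bars give all 12393 genes, the thick part the 25th to 75th percentile and the thin part the 5th to 95th, and the list medians, 0.027 to 0.10 for the lists, lie above the all-gene medians of 0.0067 and 0.0070 and inside the thick part.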

How the data were processed

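Per the labels' protocols, 10 to 20 ng of total RNA from 8 µm sections was amplified through 2 cycles from a T7-oligo(dT) primer, which favours 3′ ends. The authors deposited log2 values per probe set, made with GCOS, RMA, affy and limma, versions unstated, per the submitters' processing notes. RMA shrinks differences among weak signals and removes a shift that most genes share. The 64 control probe sets were left out of the tests. The values carry no build, so coordinates appear only for RefSeq promoters of GRCm38.p6.

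All 14 arrays entered one two-sided limma 3.58.1 fit (lmFit and eBayes, R 4.3.3) with 1 mean for each genotype. Benjamini-Hochberg adjustment was over 22626 probe sets. All p-values and intervals come from this fit, except those between the wild-type sets and those of the alternatives. The wild-type sets were compared in a limma fit with a mean for each genotype within each run of title numbers. The genotype fit was tested on simulated data. The number of arrays limits precision. Members, lists and the naming rule were chosen with earlier results of these data known. Named were all members, Klf1, Klf2, Myc and, of each list, the 2 genes with the smallest p per comparison. Genes most like E2f2 could not be named without an E2f2 value. Alternatives changed the block, arrays, probe sets, normalization, variance model and weights.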

Additional observations from a re-analysis of the deposited data

How the results depend on the processing

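No paired analysis was possible because the labels do not say which replicates, if any, share a litter. No member was called under any alternative except array weights. The weights did not converge and ran from 0.167 for KLF1-/- replicate 6 to 93 for KLF1-/- KLF2-/- replicate 13. With them 4704, 1494, 13656 and 716 probe sets were called in KLF1-/- KLF2-/-, in KLF1-/-, between them and for both together, in place of 5, 6, 0 and 16. Members called with them were 4 in KLF1-/- KLF2-/-, 1 in KLF1-/- and 9 between them. Of 1158 differences recomputed for members and named list genes, 1072 kept their sign and their side of the threshold, 75 changed sign and 11 kept their sign and passed the threshold. Of those that changed sign, 3 also passed it, and all 14 that passed did so with weights. The cause was not tested.

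Counts over all probe sets moved as follows. In KLF1-/- KLF2-/- they were 8 with the brightest probe set per gene, 8 without dim probe sets, 9 after quantile normalization, 10 with trend and robust variance, 21 with the interquartile range as a covariate and 8 without the arrays of widest and narrowest range, the last pair added after the data were seen. In KLF1-/- they were 2 with the run of title numbers as a block, 1 within the run and 3 without those arrays. Between the mutant genotypes the count was 1 with the brightest probe sets, without dim ones and after quantile normalization. For both together it was 31 after quantile normalization, 48 with the covariate and 10 without those arrays. Leaving out each array in turn gave 1 to 7 in KLF1-/- KLF2-/-, 2 to 7 in KLF1-/- (2 without replicate 6), 0 to 1 between them and 6 to 25 for both, with 0 members called.

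With the run as a block, the differences that changed sign were in KLF1-/- KLF2-/- Ccnd3 −0.21 and Ccne1 0.013, between the mutant genotypes E2f1 −0.038, Cdkn1b 0.024, Ccnd2 −0.33, Ccnd3 −0.81 and Cdk6 −0.10. Within the run, the differences that changed sign were in KLF1-/- KLF2-/- Ccnd3 −0.21 and Ccne1 0.013. After quantile normalization, the differences that changed sign were in KLF1-/- KLF2-/- Cdkn2c −0.027, in KLF1-/- Ccnd3 −0.0058 and Ccne1 −0.0094, for both together Ccne1 −0.023. With array weights, the differences that changed sign were in KLF1-/- KLF2-/- Cdkn1b −0.10 and Ccnd3 −0.24, in KLF1-/- Ccnd2 −0.13, Ccnd3 −0.31, Ccne1 −0.35 and Cdc45 −0.14, between the mutant genotypes Ccne1 0.13, Cdk6 −0.25 and Rrm2 −0.23, for both together Cdkn1b −0.024, Ccnd3 −0.28, Ccne1 −0.28 and Cdc45 −0.051. With the covariate, the differences that changed sign were in KLF1-/- Ccnd3 −0.043 and Ccne1 −0.034, between the mutant genotypes Cdkn1b 0.0061 and Cdk6 −0.050, for both together Ccne1 −0.041. Without the arrays of widest and narrowest range, the differences that changed sign were in KLF1-/- Cdkn1b −0.12, Ccnd2 −0.053, Ccnd3 −0.10, Ccne1 −0.23 and Cdk6 0.074, between the mutant genotypes Cdkn1b 0.20, Ccne1 0.14 and Cdk6 −0.22, for both together Cdkn1b −0.026 and Ccne1 −0.16.

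In KLF1-/- KLF2-/-, leaving out 1 array turned the sign within −0.086 to 0.11 for Cdkn2c, −0.10 to 0.18 for Cdkn1b, −0.018 to 0.47 for Ccnd3 and −0.12 to 0.047 for Ccne1. In KLF1-/-, leaving out 1 array turned the sign within −0.12 to 0.32 for Cdkn1b, −0.11 to 0.24 for Ccnd3, −0.15 to 0.24 for Ccne1 and −0.37 to 0.033 for Cdk6. Between the mutant genotypes, leaving out 1 array turned the sign within −0.24 to 0.20 for Cdkn1b, −0.14 to 0.52 for Ccnd2, −0.11 to 0.42 for Ccnd3, −0.25 to 0.14 for Ccne1, −0.23 to 0.18 for Cdk6, −0.20 to 0.78 for Rb1 and −0.079 to 0.57 for Mcm6. For both together, leaving out 1 array turned the sign within −0.13 to 0.0078 for Cdkn2c, −0.025 to 0.21 for Cdkn1b and −0.081 to 0.11 for Ccne1. Weak signals such as Cdk6 and arrays of 3 per mutant genotype limit what could be seen.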

Other observations

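Several replication genes, chosen after their values were seen, had probe sets that gave unlike differences. Mcm6 differed in KLF1-/- KLF2-/- by 0.20 at 1438852_x_at and by 0.55 at 1416251_at, and in KLF1-/- by −0.080 and 0.64 at the same probe sets. Rrm2, which makes the reductase subunit that supplies DNA building blocks, differed in KLF1-/- KLF2-/- by 0.041 at 1434437_x_at and by 0.62 at 1416120_at, and in KLF1-/- by −0.15 and 0.46. Mcm2 differed in KLF1-/- KLF2-/- by 0.28 at 1434079_s_at and by 0.64 at 1448777_at. All these had an adjusted p of 0.9998 or more in limma. In wild type the SD of 1416251_at was 0.75 and that of 1438852_x_at 0.38. The amplification favours 3′ ends, and the distance of each probe set from the 3′ end of its transcript was not examined.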
